A study of Mus musculus with 33 samples.

Results

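Mitosis was followed through 54 mouse genes whose proteins carry it out, of 25239 genes in a table of normalised RNA levels from endothelial cells of embryos and adult liver. The genes were taken by name, as a fixed list of mitotic factors, and every one of the 54 was found in the table. All 54 passed the filter on low values (RPKM of at least 1 in at least 2 libraries), which left 12546 genes for testing. RPKM is reads per kilobase of gene, here scaled to the library's total and by a further factor per library that is given with the processing. The cells were sorted as CD41-CD45-Ter119-CD31+VEC+cKIT lo/+ endothelium, a sort against cells carrying platelet, leukocyte and red cell surface markers. They came from the whole embryo at embryonic day (E) 9.5, the whole fetus at E13.5, and the liver of adults of 4 to 6 weeks. RUNX1, the transcription factor that starts blood formation from endothelium, was supplied from a conditional knock-in (CKI) allele that is switched on by Cre after tamoxifen. The mice were C57BL/6J-129Sv/J, crossed to B6C3F1 for E9.5. Control (Ctrl) animals carried the knock-in allele with no Cre named, as CKI/+ at E9.5 and as CKI/CKI or CKI/+ at E13.5 and in liver. Animals labelled 1Runx1 were Cre; CKI/+ and those labelled 2Runx1 were Cre; CKI/CKI, so Cre itself and the copies of Runx1 it switches on cannot be told apart. Pregnant females received 2 mg tamoxifen 24 hours before harvest. Adults received tamoxifen by oral gavage at a dose given as 2 mg, with no time before harvest recorded. There were 13 RNA libraries in 7 groups, with 2 libraries in each of E9.5 Ctrl, E9.5 1Runx1, E13.5 1Runx1, E13.5 2Runx1, Liver Ctrl and Liver 2Runx1, and 1 library in E13.5 Ctrl.

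Mitosis is driven by cyclin-dependent kinase 1 (CDK1) bound to A- and B-type cyclins, and by the Polo and Aurora kinases that are switched on with it. Condensins and topoisomerase II fold the chromosomes, kinetochores built on centromeric nucleosomes attach them to the spindle, and kinesin motors shape that spindle and move the chromosomes. The spindle checkpoint holds the anaphase-promoting complex inactive until every kinetochore is attached; the complex then marks securin and cyclin B for destruction, separase opens the cohesin rings, and cytokinesis divides the cell. Most of these genes are transcribed late in the cell cycle through the MuvB complex with B-Myb and FOXM1, which acts on a promoter element called the cell cycle genes homology region (CHR), often beside CCAAT boxes bound by NF-Y. Embryonic endothelium is known for rapid growth and most endothelium of the adult for quiescence.

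The promoters of 6 abundant members with a RefSeq promoter entry are shown because the study asks how RUNX1 acts on chromatin and because the letters of a CHR, a CCAAT box or a RUNX motif can be read directly in them. They have the highest mean RPKM among the genes picked by the naming rule, which left out Ccnb2, at a mean of 64.9 RPKM beside Cdca8 at 64.5. Each sequence runs 5′ to 3′ on the gene's strand from 250 bases before to 30 bases after the annotated start of transcription, in GRCm38.p6. Capitals mark the matches of a set of motifs, each searched on either strand. For the CHR the letters searched were TTTGAA, and as a second form TTCGAA. For NF-Y they were CCAAT, which on the opposite strand reads ATTGG. For RUNX factors they were TGTGGT, and as a second form TGCGGT. Overlapping matches form 1 run of capitals, as with a pair of CCAAT matches of Ube2c and with the CHR and a CCAAT match of Cdca8.
Ube2c (chr2:164769679-164769958, plus strand): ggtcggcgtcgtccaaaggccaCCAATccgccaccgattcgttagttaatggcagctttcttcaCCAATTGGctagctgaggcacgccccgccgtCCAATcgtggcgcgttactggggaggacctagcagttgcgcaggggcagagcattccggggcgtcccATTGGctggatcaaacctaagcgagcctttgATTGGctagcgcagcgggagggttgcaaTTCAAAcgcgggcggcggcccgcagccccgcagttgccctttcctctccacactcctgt
Cks2 (chr13:51644982-51645261, plus strand): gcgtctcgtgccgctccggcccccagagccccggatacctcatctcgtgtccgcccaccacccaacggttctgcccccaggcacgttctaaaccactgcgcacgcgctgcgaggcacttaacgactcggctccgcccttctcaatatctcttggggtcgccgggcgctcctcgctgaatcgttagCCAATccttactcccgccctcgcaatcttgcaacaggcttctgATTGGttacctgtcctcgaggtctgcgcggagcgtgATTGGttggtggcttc
Cdc20 (chr4:118437314-118437593, minus strand): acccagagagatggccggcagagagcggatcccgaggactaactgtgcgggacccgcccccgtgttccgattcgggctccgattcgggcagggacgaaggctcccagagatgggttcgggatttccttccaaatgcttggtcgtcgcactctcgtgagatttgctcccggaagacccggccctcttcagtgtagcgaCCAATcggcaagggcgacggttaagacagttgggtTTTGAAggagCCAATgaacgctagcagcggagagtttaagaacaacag
Ccnb1 (chr13:100786457-100786736, minus strand): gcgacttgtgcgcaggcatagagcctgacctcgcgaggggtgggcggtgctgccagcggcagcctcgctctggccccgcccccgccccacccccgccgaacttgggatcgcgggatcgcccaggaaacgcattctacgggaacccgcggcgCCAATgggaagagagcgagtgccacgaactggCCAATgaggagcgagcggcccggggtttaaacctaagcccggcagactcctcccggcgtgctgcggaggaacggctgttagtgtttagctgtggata
Cenpa (chr5:30666636-30666915, plus strand): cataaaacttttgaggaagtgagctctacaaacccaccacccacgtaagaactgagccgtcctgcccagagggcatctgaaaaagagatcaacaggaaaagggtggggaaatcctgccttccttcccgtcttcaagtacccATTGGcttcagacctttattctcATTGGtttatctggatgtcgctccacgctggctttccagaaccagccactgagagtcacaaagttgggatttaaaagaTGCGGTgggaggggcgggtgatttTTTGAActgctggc
Cdca8 (chr4:124936888-124937167, minus strand): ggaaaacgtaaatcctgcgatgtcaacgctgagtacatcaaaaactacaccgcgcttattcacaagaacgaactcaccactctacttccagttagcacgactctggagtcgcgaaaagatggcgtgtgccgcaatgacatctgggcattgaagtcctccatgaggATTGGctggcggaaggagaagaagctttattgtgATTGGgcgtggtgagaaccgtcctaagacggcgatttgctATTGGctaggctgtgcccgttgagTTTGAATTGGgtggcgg

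Ube2c held CHR letters on the opposite strand starting 29 bases before its start, and Cdc20 held them on its own strand starting 18 bases before. In Cenpa and Cdca8 the CHR letters began 17 and 14 bases after the start, and Cenpa was the only one of the 6 with RUNX letters, TGCGGT starting 8 bases before its start. Neither Cks2 nor Ccnb1 had CHR letters here, and all 6 had at least 2 CCAAT matches, of which Ube2c had 6. A promoter entry was found for 45 members. Counted over the full 300-base entries and either strand, CHR letters were present in 35 of those 45, CCAAT in 34 and both in 30. Among all 32851 mouse promoter entries, 19.2% held CHR letters, 37.4% held CCAAT and 7.52% held both, against 78.7%, 76.6% and 68.1% of the 47 entries of these genes. RUNX letters were present in 6 members, or 14.9% of their entries against 22.4% of all entries. The E2F letters GCGGGAA were present in 2 members, or 4.26% of their entries against 4.60% of all. On the gene's own strand alone, CHR letters were present in 27 members, CCAAT in 21, RUNX letters in 2 and E2F letters in 2. In that order, these were 61.7%, 48.9%, 4.26% and 4.26% of the members' entries. Of all entries on that strand, the shares were 11.6%, 21.1%, 12.1% and 2.48%. These are matches of letters and describe the promoters without saying what binds there.

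Open chromatin was mapped by ATAC-seq, in which a transposase cuts accessible DNA, and the authors deposited 1 list of MACS2 peaks for each of the 7 groups. A peak lay within 500 bases of the annotated start in 44 of the 45 members in every one of the 7 lists, and Kif2c was the gene without one in each. Among all 27025 genes with an entry, 50.4% to 52.4% had such a peak in the embryonic lists and 38.02% had one in each liver list. The liver lists were shorter, with 39019 and 39469 peaks against 80857 to 100268 in the embryonic lists. By the authors' own fold enrichment, the median of the members' start peaks was 20.8 in E9.5 Ctrl, 21.8 in E13.5 Ctrl, 19.4 in Liver Ctrl and 17.3 in Liver 2Runx1. Over all genes with a start peak the median was 15.3, 16.2, 12.7 and 11.8 in the same lists, so it was lower in liver there too. The starts of the mitosis genes were thus listed as accessible in adult liver endothelium, where their RNA was low (below). With 1 list per group, these values have no replicate error.

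The RNA libraries held 37501897 to 44181296 reads, recovered from the deposited values, and 10779 to 11355 genes at 1 RPKM or more. Runx1 (group means) was at 0.910 RPKM in E9.5 Ctrl and 15.6 in E9.5 1Runx1. It was at 1.37 in E13.5 Ctrl, 26.3 in E13.5 1Runx1 and 23.9 in E13.5 2Runx1, and at 1.36 in Liver Ctrl and 78.2 in Liver 2Runx1. Added against not added thus followed the labels, but the number of copies did not. At E13.5 2 copies did not give more Runx1 RNA than 1, and the same 2Runx1 label went with more in liver. All 14 endothelial markers were detected in every group, and liver sinusoidal markers summed to 12328 to 12762 RPKM in the liver libraries and 101 to 127 at E9.5. Nothing in the labels says that replicate libraries came from separate animals, so each p-value reflects the spread between these libraries alone, which may be technical. In bulk RNA, fewer dividing cells and less of each transcript per cell cannot be told apart.

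The summed level of the 54 genes was highest in E9.5 embryos, lower at E13.5 and lowest in adult liver endothelium, where it was higher with added Runx1. It was 2994 and 2997 RPKM in the E9.5 Ctrl libraries, 3067 and 3011 in E9.5 1Runx1, 2227 in E13.5 Ctrl, 2255 and 2259 in E13.5 1Runx1, and 2132 and 2412 in E13.5 2Runx1. In liver it was 259 and 269 RPKM in Ctrl and 676 and 697 in 2Runx1. No library of one stage overlapped another stage, and the liver groups did not overlap each other. The genes took 0.855% of all reads in the first E9.5 Ctrl library, 0.0554% in the first Liver Ctrl library and 0.163% in the first Liver 2Runx1 library.

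**Figure D1:**
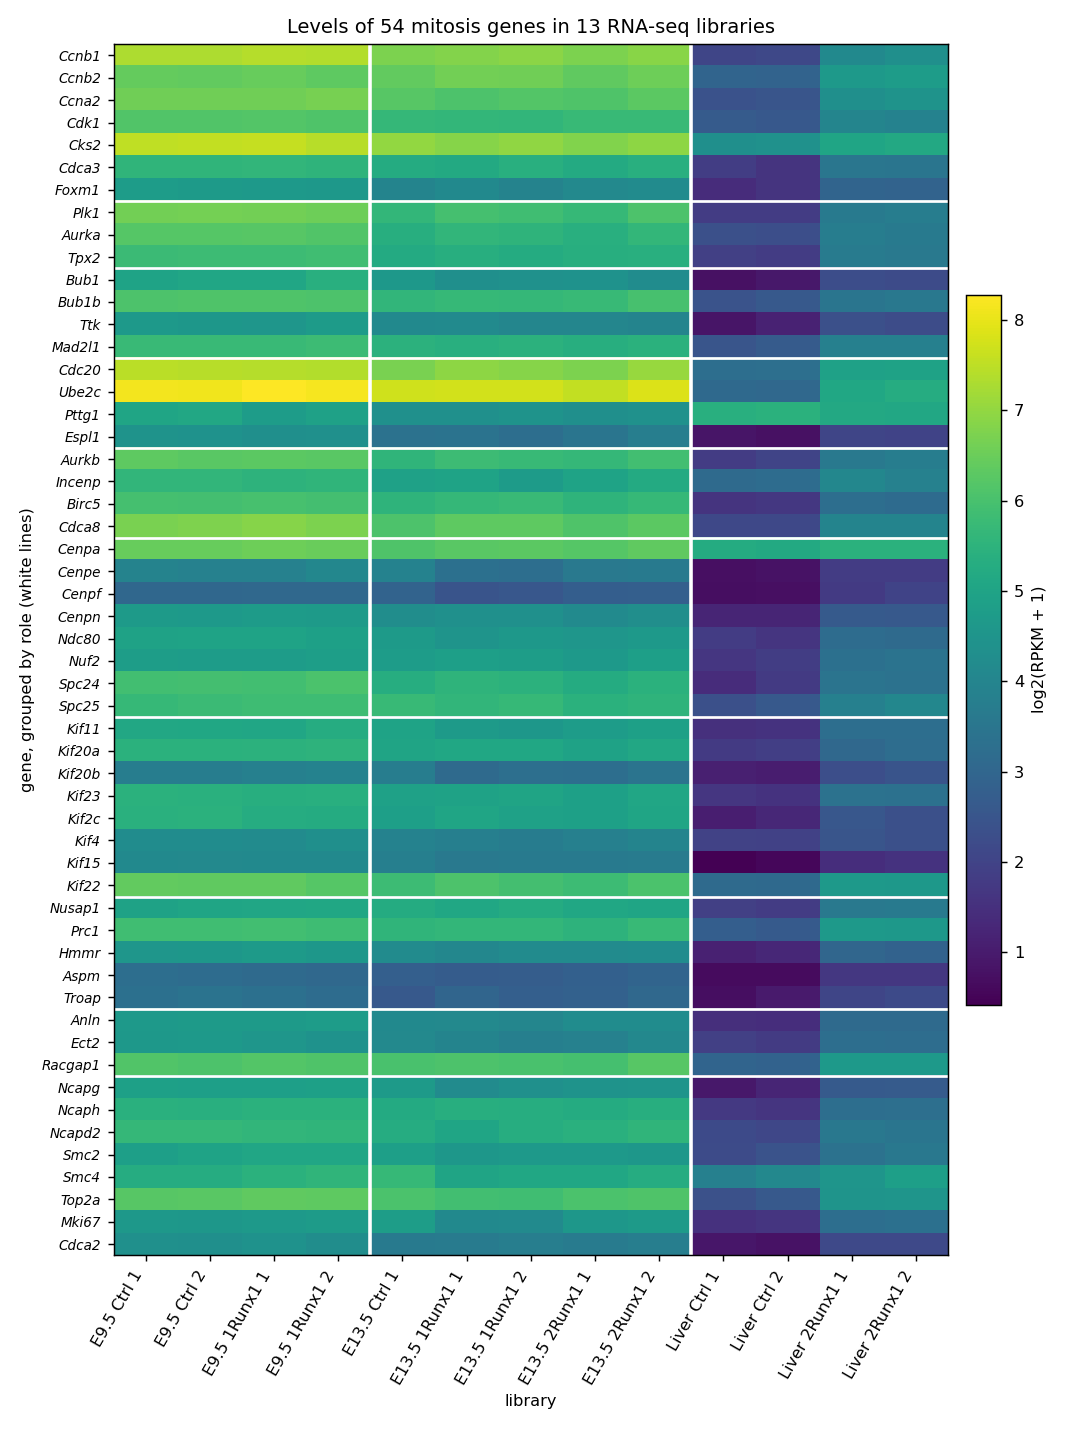
Heat map of log2(RPKM + 1) for the 54 genes (rows, grouped by role) in the 13 RNA libraries (columns, ordered by stage and genotype). Brighter colours are higher levels: most rows are brightest in the 4 E9.5 columns and slightly darker in the 5 E13.5 columns, and the 2 Liver Ctrl columns are darkest in all rows but that of Pttg1, where they are brightest. The 2 Liver 2Runx1 columns lie between Liver Ctrl and the embryo in the other rows.

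Differences below are on the log2(RPKM + 1) scale, from limma fitted over all genes and libraries, and understate the change of genes near 1 RPKM. A gene is said to rise or fall where its Benjamini-Hochberg adjusted p was under 0.05. From E9.5 Ctrl to E13.5 Ctrl, 39 members fell, 2 rose and 13 did not pass, with a median of -0.41. Of all tested genes, 26.4% fell and 22.3% rose in this comparison. From E13.5 Ctrl to Liver Ctrl, 53 fell and 1 rose, with a median of -3.12, against 38.6% of all genes lower and 40.6% higher. From E9.5 Ctrl to Liver Ctrl, again 53 fell and 1 rose, with a median of -3.48, where 42.7% of all genes fell and 42.7% rose. The median over all genes was -0.02, 0.02 and -0.01 in these 3 comparisons. They share control libraries. Those with E13.5 Ctrl rest on 1 library there, whose spread is assumed to be that of the other groups. The spread of those groups was not equal. Over all tested genes, the standard deviation of the replicate difference was 0.246 (E13.5 1Runx1) and 0.236 (E13.5 2Runx1). It was 0.136 (E9.5 Ctrl), 0.164 (E9.5 1Runx1), 0.155 (Liver Ctrl) and 0.150 (Liver 2Runx1) elsewhere. Over the members, with the groups in the same order, it was 0.112, 0.110, 0.0479, 0.0978, 0.142 and 0.113. Whether the pooled spread is too small for E13.5 was not tested. Age, tissue and cross differ together between the stages and cannot be told apart. RNA of other cells differed too. Erythroid markers summed to 159 to 161 RPKM in E9.5 Ctrl, 1226 in E13.5 Ctrl and 36.9 to 38.3 in Liver Ctrl. Hepatocyte markers summed to 19.3 to 20.6, 282 and 159 to 170 RPKM in the same groups, and macrophage markers to 0.932 to 1.20, 15.1 and 143 to 146. Their part in the stage differences was not tested.

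With Runx1, the liver changed most. Of the 54 members 53 rose and 1 fell from Liver Ctrl to Liver 2Runx1, with a median of 1.43, where 17.1% of all genes rose, 8.14% fell and the median gene moved by 0.02. On the RPKM scale the ratio ran from 0.836 for Pttg1 to 5.54 for Ccnb1 with a median of 3.92, and 48 members rose by more than 2-fold and 24 by more than 4-fold. Both Liver 2Runx1 libraries lay above both Liver Ctrl libraries in 53 members and below all 9 embryonic libraries in the same number. These fold and overlap counts were not made over all genes, so they describe the members without a background share. Liver 2Runx1 reached 14.8% (Kif2c) to 177% (Pttg1) of the level in E13.5 2Runx1, with a median of 28.9%. Leaving out any 1 library left 52 to 54 members past the test.

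**Figure D2:**
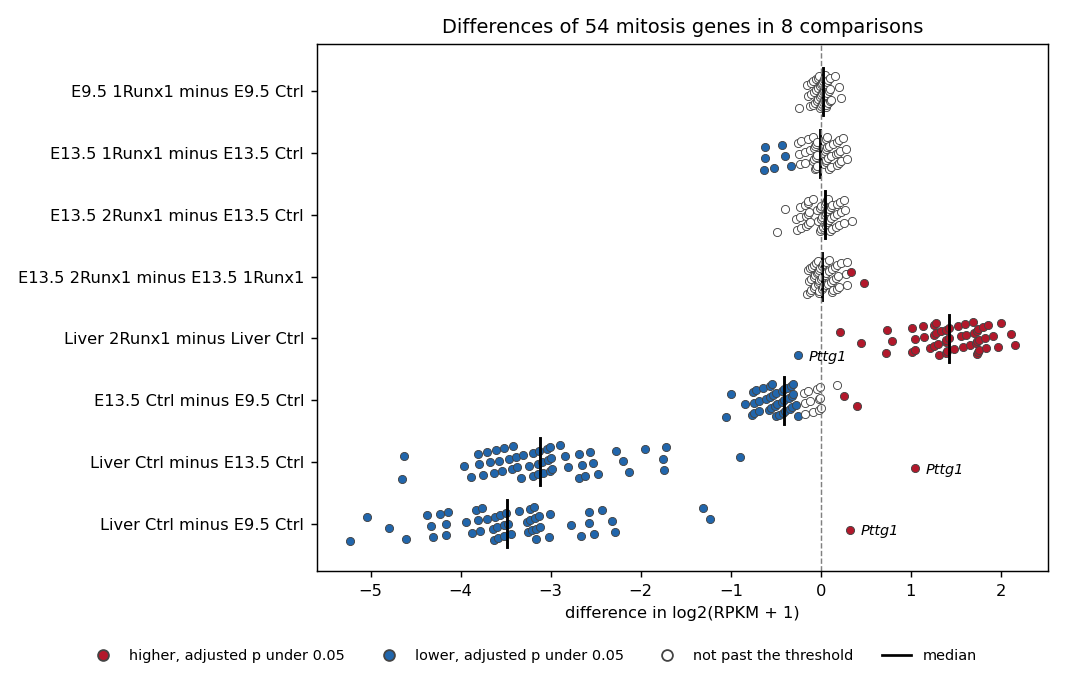
Differences in log2(RPKM + 1) of the 54 genes (points) in 8 comparisons, with the median of the 54 as a black bar, and red or blue for genes past an adjusted p of 0.05. The Liver 2Runx1 points lie to the right with a median of 1.43 and the adult against embryo points to the left with medians of -3.12 and -3.48, whereas the 4 embryonic Runx1 comparisons have medians of -0.01 to 0.04.

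The class of cyclins, CDK1 and their transcription factor holds Ccnb1, Ccnb2 and Ccna2 (the B- and A-type cyclins of mitosis), Cdk1, Cks2 (a small subunit of CDK complexes), Cdca3 (a factor of mitotic entry) and Foxm1 (the transcription factor of late cell cycle genes). Cks2, the member of this class with the highest mean level, was at 182 and 187 RPKM in E9.5 Ctrl, 192 and 171 in E9.5 1Runx1, 126 in E13.5 Ctrl, 116 and 124 in E13.5 1Runx1, and 109 and 121 in E13.5 2Runx1. It was at 19.2 and 20.2 RPKM in Liver Ctrl and 32.0 and 34.7 in Liver 2Runx1, a rise of 0.73 (SE 0.0735; adjusted p = 4.35e-05, limma). Cks2 thus kept more of its level in adult liver than the cyclins did. Ccnb1 was at 159 and 158 RPKM in E9.5 Ctrl, 167 and 165 in E9.5 1Runx1, 106 in E13.5 Ctrl, 113 and 120 in E13.5 1Runx1, and 106 and 116 in E13.5 2Runx1. In liver it was at 3.18 and 3.32 RPKM in Ctrl and 16.8 and 19.2 in 2Runx1, from 236 and 254 reads against 1397 and 1433. Ccnb1 had the steepest fall of the 54, 48.8-fold from E9.5 Ctrl and 32.6-fold from E13.5 Ctrl, and the steepest rise with Runx1, 2.16 (SE 0.0661; adjusted p = 1.72e-08, limma). All 7 of the class fell from embryo to liver and rose in Liver 2Runx1, where Ccna2 rose by 1.96, Ccnb2 and Cdca3 by 1.76 each, Foxm1 by 1.43 and Cdk1 by 1.32. Between E9.5 and E13.5 Ctrl 6 of 7 fell, led by Foxm1 at -0.76, and Ccnb2 (-0.01; adjusted p = 0.906, limma) did not pass. Ccnb1 and Ccnb2 each have an annotated pseudogene that reads could be shared with.

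The spindle kinase class holds Plk1 (Polo-like kinase), Aurka (the Aurora kinase of spindle poles) and Tpx2, which activates Aurora A at the spindle. Plk1 was at 96.5 and 98.4 RPKM in E9.5 Ctrl, 96.3 and 93.1 in E9.5 1Runx1, 48.2 in E13.5 Ctrl, 61.7 and 56.9 in E13.5 1Runx1, and 50.9 and 66.6 in E13.5 2Runx1. Its level was 2.55 and 2.54 RPKM in Liver Ctrl and 11.4 and 12.3 in Liver 2Runx1. The liver groups were far apart for Plk1, a rise of 1.86 (SE 0.101; adjusted p = 4.85e-07, limma), while the E13.5 libraries lay between 48.2 and 66.6 RPKM. Plk1 and Aurka had among the largest falls from E9.5 to E13.5 Ctrl, -1.001 and -0.84, and Tpx2 fell by 0.56. Tpx2 rose by 1.80 and Aurka by 1.39 in Liver 2Runx1.

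The spindle checkpoint was represented by Bub1 and Ttk (its kinases), Bub1b (BUBR1) and Mad2l1 (MAD2). Bub1b was at 66.1 and 67.7 RPKM in E9.5 Ctrl, 68.0 and 67.5 in E9.5 1Runx1, 47.6 in E13.5 Ctrl, 49.9 and 48.8 in E13.5 1Runx1, and 51.6 and 62.6 in E13.5 2Runx1. It was at 4.37 and 5.101 RPKM in Liver Ctrl and 10.2 and 10.9 in Liver 2Runx1. Bub1b rose by 1.01 (SE 0.0871; adjusted p = 1.35e-05, limma), a 2.22-fold change that was below the median of the 54. The other 3 rose by 1.26 (Mad2l1) to 1.39 (Bub1). All 4 fell from E9.5 to E13.5 Ctrl, by 0.28 to 0.48. Bub1 was low in Liver Ctrl, at 0.713 and 0.915 RPKM, and 1 of the 8 members under 1 RPKM in both of those libraries. No member was under 1 RPKM in either Liver 2Runx1 library.

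Around the anaphase-promoting complex, Cdc20 is its mitotic activator, Ube2c its ubiquitin-conjugating enzyme, Pttg1 the separase inhibitor securin and Espl1 separase. Ube2c was the most abundant of the 54 in every embryonic group, at 282 and 275 RPKM in E9.5 Ctrl, 310 and 289 in E9.5 1Runx1, 209 in E13.5 Ctrl, 212 and 213 in E13.5 1Runx1, and 186 and 234 in E13.5 2Runx1. It was at 7.61 and 7.35 RPKM in Liver Ctrl and 33.3 and 38.4 in Liver 2Runx1, a 4.79-fold rise (2.12; SE 0.0953; adjusted p = 1.3e-07, limma). Its fall from E9.5 to Liver Ctrl was 37.2-fold. Cdc20 rose by 1.65 and Espl1 by 1.21 in Liver 2Runx1, and both had fallen from E9.5 to E13.5 Ctrl, by 0.74 and 1.05, the latter the largest fall of that comparison.

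Pttg1 ran against the rest of the list. The gene (chr11:43420244-43427463, GRCm38.p6) was at 32.1 and 33.8 RPKM in E9.5 Ctrl, 26.3 and 29.0 in E9.5 1Runx1, 19.5 in E13.5 Ctrl, 19.4 and 21.0 in E13.5 1Runx1, and 19.1 and 19.95 in E13.5 2Runx1. In liver it was at 40.6 and 42.2 RPKM in Ctrl and 35.1 and 34.1 in 2Runx1. The Liver Ctrl libraries were thus its highest and the E13.5 libraries its lowest, and the liver groups did not overlap. It was the only member to rise from E13.5 to Liver Ctrl (1.05; SE 0.0782; adjusted p = 3.56e-07, limma) and from E9.5 to Liver Ctrl (0.32; adjusted p = 0.000663), and the only one to fall in Liver 2Runx1 (-0.25; SE 0.0638; adjusted p = 0.0152). By mean RPKM it ranked 32 of 54 in E9.5 Ctrl and 39 in E13.5 Ctrl, then 1 in Liver Ctrl and 3 in Liver 2Runx1. Its fall with Runx1 in liver and the rise of Cenpa there no longer passed without Liver Ctrl replicate 2 or without either Liver 2Runx1 library, with adjusted p up to 0.0933 and 0.104.

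The chromosomal passenger complex, which corrects spindle attachments, consists of Aurkb (its kinase), Incenp (the scaffold), Birc5 (survivin) and Cdca8 (borealin). Cdca8 was at 103 and 108 RPKM in E9.5 Ctrl, 114 and 106 in E9.5 1Runx1, 66.9 in E13.5 Ctrl, 78.8 and 80.1 in E13.5 1Runx1, and 68.9 and 77.4 in E13.5 2Runx1. It was at 3.38 and 3.33 RPKM in Liver Ctrl and 14.5 and 14.6 in Liver 2Runx1. Replicates were close beside the gap between the liver groups, a rise of 1.83 (SE 0.0616; adjusted p = 2.49e-08, limma). Aurkb rose by 1.74, Birc5 by 1.58 and Incenp by 0.79. All 4 fell from E9.5 to E13.5 Ctrl and again to Liver Ctrl, where Incenp, at 7.76 and 8.27 RPKM, had fallen least (-1.74).

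Of the 8 centromere and kinetochore genes, Cenpa encodes the centromeric histone H3, Cenpn reads its nucleosome, Ndc80, Nuf2, Spc24 and Spc25 form the NDC80 complex that holds microtubules, Cenpe is a kinetochore motor and Cenpf a large coiled-coil protein of the outer kinetochore. Cenpa was at 86.7 and 86.3 RPKM in E9.5 Ctrl, 92.2 and 89.3 in E9.5 1Runx1, 68.3 in E13.5 Ctrl, 76.2 and 77.3 in E13.5 1Runx1, and 72.3 and 81.5 in E13.5 2Runx1. It was at 36.9 and 35.5 RPKM in Liver Ctrl and 42.3 and 42.2 in Liver 2Runx1. Cenpa therefore kept 36.2 RPKM on average in Liver Ctrl, second to Pttg1 at 41.4, and these were the only members over 20 RPKM there. Its rise with Runx1 was the smallest of those that passed, 0.22 (SE 0.0565; adjusted p = 0.0178, limma). All 8 rose in Liver 2Runx1, with a median of 1.41, led by Spc24 at 1.83 and Nuf2 at 1.62, and Ndc80 rose by 1.42. From E9.5 to E13.5 Ctrl 4 of 8 fell (Cenpa, Cenpn, Ndc80 and Spc24), while Cenpe, Cenpf, Nuf2 and Spc25 did not pass, with Cenpf farthest from 0 at -0.12.

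The 8 kinesins are Kif11 (which pushes spindle poles apart), Kif15 (which acts beside it), Kif20a, Kif20b and Kif23 (motors of the central spindle and cytokinesis), Kif2c (a microtubule depolymerase), and Kif4 and Kif22 (chromosome-bound motors). Kif22 was at 82.2 and 81.4 RPKM in E9.5 Ctrl, 80.8 and 73.3 in E9.5 1Runx1, 55.1 in E13.5 Ctrl, 67.4 and 60.01 in E13.5 1Runx1, and 55.5 and 65.5 in E13.5 2Runx1. It was at 7.81 and 7.57 RPKM in Liver Ctrl and 24.4 and 23.5 in Liver 2Runx1, a rise of 1.52 (SE 0.0826; adjusted p = 4.79e-07, limma). All 8 rose in Liver 2Runx1, from Kif4 at 0.45 to Kif23 at 1.74, with Kif11 at 1.72. Kif15 had the lowest level of the 54 in liver, a mean of 0.407 RPKM in Ctrl from 52 and 76 reads, and 1.85 in 2Runx1. From E9.5 to E13.5 Ctrl 6 of 8 fell, and Kif11 and Kif20b did not pass. Kif4 and Kif22 have annotated pseudogenes, so their values are uncertain to that extent.

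Among spindle-associated proteins, Prc1 bundles the microtubules of the central spindle, Nusap1 and Hmmr bind spindle microtubules, Aspm acts at spindle poles, and Troap is a spindle-associated protein of less defined role. Prc1 was at 58.0 and 56.9 RPKM in E9.5 Ctrl, 58.7 and 55.7 in E9.5 1Runx1, 45.7 in E13.5 Ctrl, 48.1 and 48.5 in E13.5 1Runx1, and 43.9 and 51.2 in E13.5 2Runx1. It was at 5.76 and 5.27 RPKM in Liver Ctrl and 23.7 and 23.3 in Liver 2Runx1, a rise of 1.91 (SE 0.0704; adjusted p = 4.03e-08, limma). All 5 rose in Liver 2Runx1, with Nusap1 at 1.75, Hmmr at 1.74, Troap at 1.26 and Aspm at 1.04. Nusap1 was 1 of the 2 members to rise from E9.5 to E13.5 Ctrl (0.26; adjusted p = 0.0279, limma), and the other 4 of this class fell, led by Troap at -0.76. Without E9.5 Ctrl replicate 1 the rise of Nusap1 did not pass (adjusted p = 0.131), and no member rose in that comparison. Unstranded libraries cannot separate Prc1 from the overlapping Rccd1 or Nusap1 from the overlapping Oip5, and the same holds for Ccna2 with Exosc9, Aurka with Cstf1, Cdc20 with Elovl1, Cenpn with Cmc2, Foxm1 with Tex52, Ncapg with Lcorl, and Kif20a with Brd8 and Cdc23.

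For cytokinesis, Racgap1 and Ect2 switch on RhoA at the division plane and Anln links the contractile ring. Racgap1 was at 69.7 and 66.7 RPKM in E9.5 Ctrl, 71.2 and 67.8 in E9.5 1Runx1, 64.1 in E13.5 Ctrl, 67.5 and 64.3 in E13.5 1Runx1, and 61.0 and 73.9 in E13.5 2Runx1. It was at 6.69 and 6.48 RPKM in Liver Ctrl and 23.9 and 24.5 in Liver 2Runx1. The embryonic libraries overlapped for Racgap1 and its change from E9.5 to E13.5 Ctrl, -0.09, did not pass, whereas Anln and Ect2 fell by 0.53 and 0.50. In Liver 2Runx1 Racgap1 rose by 1.73 (SE 0.0779; adjusted p = 1.3e-07, limma), Anln by 1.68 and Ect2 by 1.40.

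The last class holds 5 condensin subunits (Smc2, Smc4, Ncapd2, Ncapg and Ncaph), Top2a (the topoisomerase that untangles sister chromatids), Mki67 (Ki-67, which coats mitotic chromosomes and is a standard marker of cycling cells) and Cdca2 (a phosphatase-targeting protein of chromatin). Top2a was at 74.7 and 75.7 RPKM in E9.5 Ctrl, 80.8 and 78.6 in E9.5 1Runx1, 65.9 in E13.5 Ctrl, 59.2 and 57.5 in E13.5 1Runx1, and 64.8 and 67.8 in E13.5 2Runx1. It was at 4.16 and 5.09 RPKM in Liver Ctrl and 21.2 and 21.7 in Liver 2Runx1, a rise of 2.00 (SE 0.0702; adjusted p = 3.02e-08, limma). Mki67 rose by 1.71, Ncaph by 1.61, Ncapg by 1.56, Ncapd2 by 1.40, Cdca2 by 1.30 and Smc2 by 1.14 in the same comparison. Smc4 stayed higher than the rest of condensin in Liver Ctrl, at 13.3 and 16.1 RPKM, and rose by 0.73 (SE 0.12; adjusted p = 0.00134, limma). From E9.5 to E13.5 Ctrl only Ncapd2 and Cdca2 of this class fell, by 0.38 and 0.68, and Smc4 rose (0.40; adjusted p = 0.0428, limma). That rise did not pass without either E9.5 Ctrl library (adjusted p = 0.108 and 0.106) or either E9.5 1Runx1 library (0.0528 and 0.0529).

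**Figure D3:**
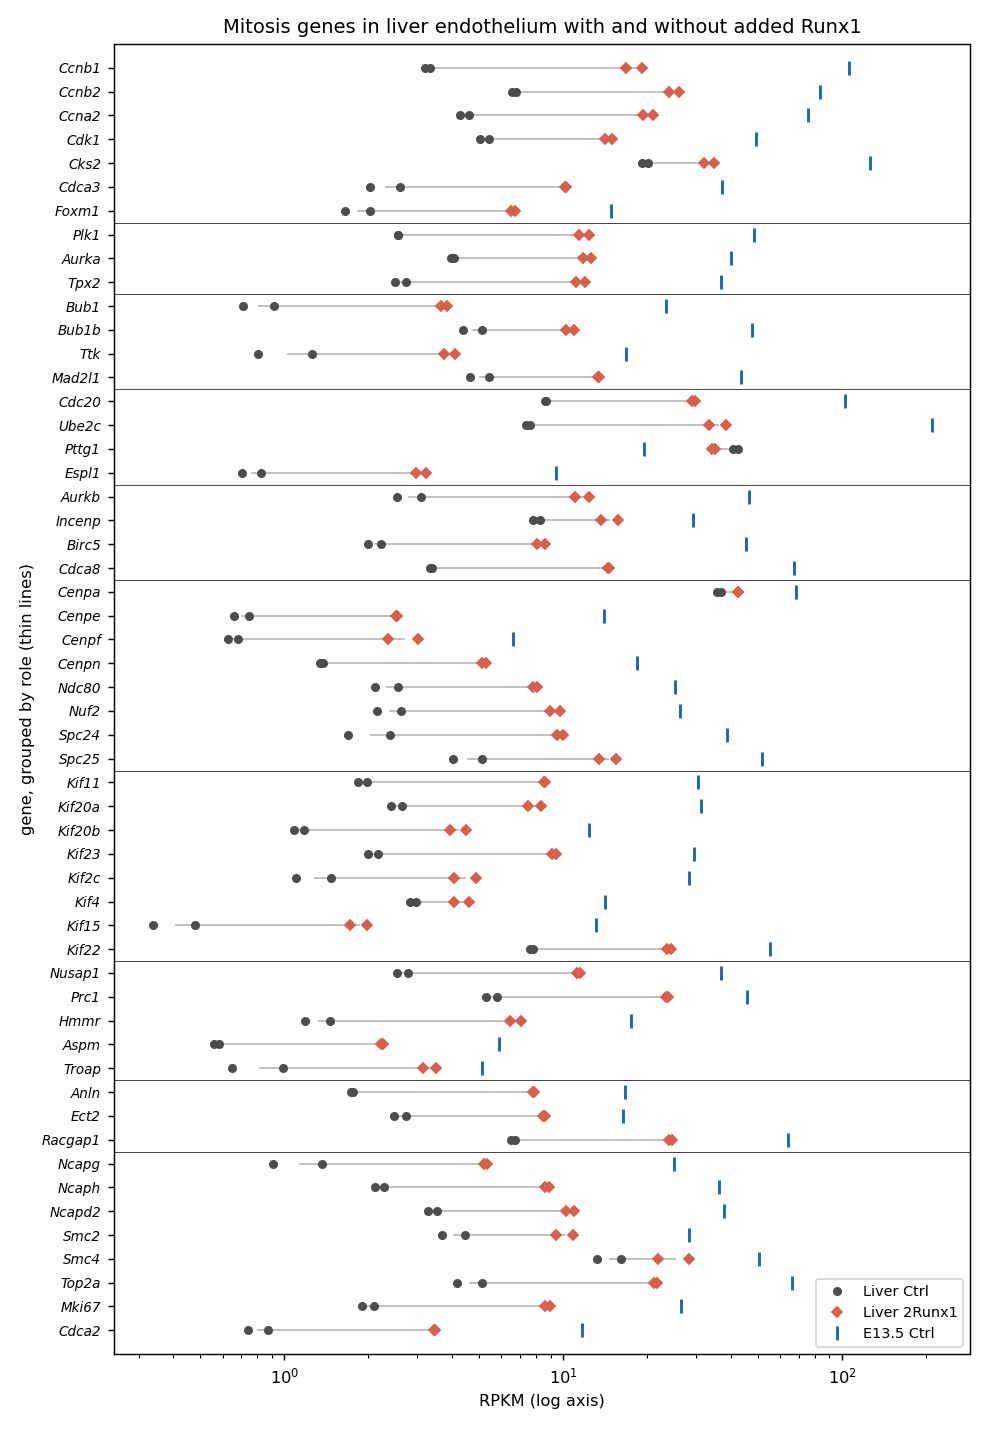
RPKM (log axis) of each of the 54 genes in the 2 Liver Ctrl libraries (dark points), the 2 Liver 2Runx1 libraries (red diamonds) and the E13.5 Ctrl library (blue bars), with a grey line joining the liver group means. The red diamonds lie to the right of the dark points in 53 rows and to the left in the row of Pttg1, and in every row but that one they lie short of the blue bar.

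The order of the members by level was largely kept between stages. Of the 54, 50 fell stepwise in mean RPKM from E9.5 Ctrl to E13.5 Ctrl to Liver Ctrl. As a description across genes that share libraries, Spearman's rho of the group means over the 54 was 0.955 between E9.5 Ctrl and E13.5 Ctrl, 0.793 between E13.5 Ctrl and Liver Ctrl, and 0.945 between Liver Ctrl and Liver 2Runx1. Liver Ctrl stood at 2.05% (Ccnb1) to 126% (Pttg1) of E9.5 Ctrl, with a median of 6.50%, and E13.5 Ctrl at 45.7% (Espl1) to 133% (Smc4), with a median of 74.6%. The 30 members with both CHR and CCAAT letters had a median difference of -3.52 from E9.5 to Liver Ctrl, and the 15 with an entry but without both had a median of -3.17, with ranges that overlapped.

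Marker lists were read in the liver groups too, in a comparison where 17.1% of all genes rose and 8.14% fell. Pan-haematopoietic markers summed to 16.9 and 18.6 RPKM in Liver Ctrl and 26.9 to 27.6 in Liver 2Runx1, where Was and Itga2b rose among 7 tested and none fell. Macrophage markers summed to 143 to 146 RPKM in Ctrl and 123 to 126 in 2Runx1, where 1 of 10 rose and 2 fell, and mesenchymal markers to 86.3 to 89.3 and 43.5 to 47.8, where 3 of 10 fell. Erythroid markers summed to 36.9 to 38.3 and 22.5 to 25.1 RPKM, with 2 of 10 tested lower; Hba-a1 and Hbb-bt were at 0 in both liver groups and Gata1 in Liver 2Runx1. Of the 14 endothelial markers 2 rose and 5 fell, with sums of 6133 to 6185 RPKM in Ctrl and 5603 to 5856 in 2Runx1. Their differences ran from -0.63 to 0.25, with a median of -0.13. Hepatocyte markers summed to 159 to 170 and 158 to 159 RPKM, with 1 of 12 higher. Neural markers summed to 6.10 to 6.38 and 10.3 to 10.8 RPKM, with 1 of 7 tested higher. None of 10 liver sinusoidal markers and none of 6 tested neutrophil and mast cell markers passed. The part of other cells in the rise of the mitosis genes was not tested.

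At E9.5, added Runx1 left the mitosis genes near their control levels. None of the 54 passed in E9.5 1Runx1 against E9.5 Ctrl (limma), and 1 had an unadjusted p under 0.05, where 1.19% of all genes passed in either direction. The median difference was 0.02 and the range -0.25 to 0.22. The smallest adjusted p belonged to Pttg1 (-0.25; adjusted p = 0.125, limma), followed by Bub1 (0.20; 0.501) and Smc4 (0.22; 0.513). The 95% intervals ran from -0.08 to 0.21 for Ccnb1, from -0.27 to 0.18 for Plk1 and from -0.05 to 0.23 for Mki67, so rises of the size seen in liver lay outside them. Limma-voom on the recovered reads also called 0 of the 54.

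At E13.5, 7 members fell and none rose in 1Runx1 against Ctrl, a comparison in which 4.03% of all genes fell, 6.34% rose and the median of the 54 was -0.01. They were Mki67, Cenpe, Smc4, Kif20b, Cenpf, Ncapg and Kif11. Mki67 (chr7:135689784-135716450) was at 23.6 and 23.0 RPKM in E9.5 Ctrl, 24.2 and 25.4 in E9.5 1Runx1, 26.5 in E13.5 Ctrl, 16.6 and 16.97 in E13.5 1Runx1, and 23.0 and 24.8 in E13.5 2Runx1. The 1Runx1 libraries lay below every other embryonic library, a fall of 0.63 (SE 0.077; adjusted p = 0.00161, limma). Cenpe (chr3:135212563-135273540) was at 14.0 RPKM in E13.5 Ctrl, 8.95 and 8.58 in 1Runx1, and 10.98 and 11.7 in 2Runx1, a fall of 0.62 in 1Runx1 (SE 0.0952; adjusted p = 0.0048, limma). Smc4 was at 50.3 RPKM in E13.5 Ctrl, 31.4 and 33.5 in 1Runx1, and 33.0 and 38.2 in 2Runx1, and its E13.5 Ctrl value was its highest in any library. The remaining falls were -0.62 for Smc4, -0.52 for Kif20b, -0.43 for Cenpf, -0.40 for Ncapg and -0.33 for Kif11, with adjusted p of 0.0284, 0.0169, 0.0365, 0.0469 and 0.0492 (limma). The cyclins, the spindle kinases and the passenger complex had no member past the test, and Plk1 and Cdca8 were at 0.29 and 0.24.

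These falls rest on a single control library and went with gene length. The 7 had a median counted length of 5.62 kb against 3.09 kb in the other 47, and across the 54 Spearman's rho between counted length and the difference was -0.636, against -0.252 across all tested genes. In the same libraries, erythroid markers summed to 1226 RPKM in E13.5 Ctrl and 484 to 606 in 1Runx1 (5 of 10 tested fell), hepatocyte markers to 282 and 208 to 210 (10 of 12 fell and 1 rose), macrophage markers to 15.1 and 5.82 to 6.00 (5 of 10 fell), and neutrophil and mast cell markers to 37.4 and 11.6 to 15.9 (3 of 6 tested fell). Pan-haematopoietic markers went the other way in sum, at 42.0 RPKM in E13.5 Ctrl and 52.1 to 62.8 in 1Runx1 (2 of 7 tested rose and 2 fell). Of 14 endothelial markers 4 rose and 1 fell, in a comparison where 4.03% of all genes fell and 6.34% rose. The part of length and of other cells in the falls was not tested. The count was 2 without E13.5 1Runx1 replicate 1, 4 without either E9.5 Ctrl library, and 10 without either E13.5 2Runx1 library, of which 3 were then higher and 7 lower. When only the groups of this comparison entered the fit, 0 members and 0 of all genes passed, with 10 members and 1866 genes at an unadjusted p under 0.05.

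**Figure D4:**
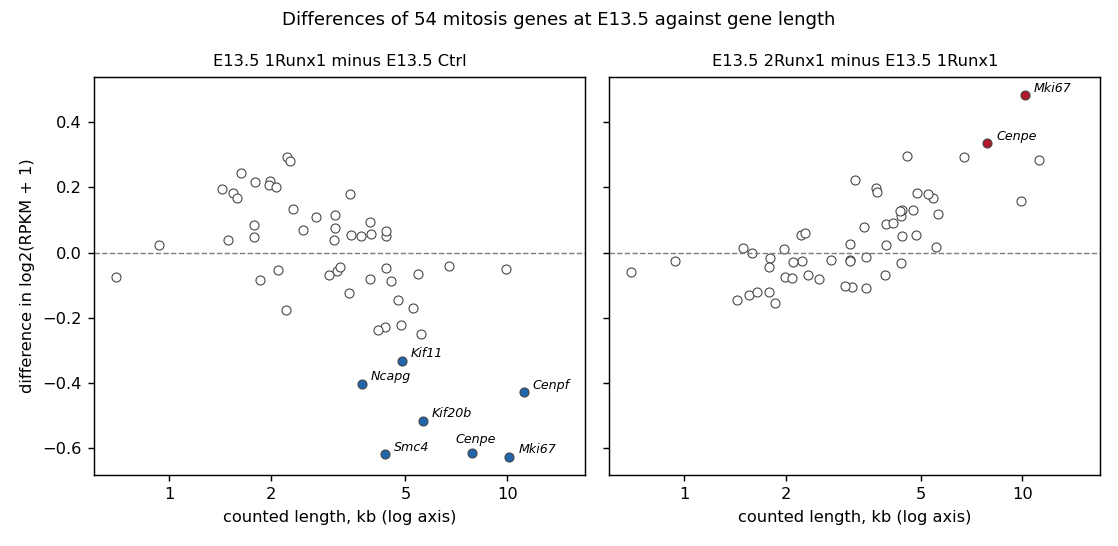
Difference in log2(RPKM + 1) of the 54 genes (points) against the length over which reads were counted (log axis, kb), for E13.5 1Runx1 against Ctrl (left) and E13.5 2Runx1 against 1Runx1 (right), with genes past an adjusted p of 0.05 coloured and named. Long genes lie low in the left panel (rho -0.636) and high in the right panel (rho 0.747).

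With 2 copies at E13.5, none of the 54 passed against Ctrl, while 7 had an unadjusted p under 0.05 (3 higher and 4 lower), and 0.271% of all genes passed in either direction (limma). The smallest adjusted p were those of Kif20b (-0.40; 0.189), Smc4 (-0.49; 0.212) and Cenpe (-0.28; 0.258). Mki67 was at -0.14, with a 95% interval of -0.31 to 0.03, and Ccnb1 at 0.06, with an interval of -0.11 to 0.24. Without E13.5 2Runx1 replicate 1, 2 members passed as higher. Compared directly, E13.5 2Runx1 was above 1Runx1 in 2 members, where 2.17% of all genes were higher, Mki67 (0.48; SE 0.0629; adjusted p = 0.00315, limma) and Cenpe (0.34; adjusted p = 0.0359). Next came Ncapd2 (0.30; adjusted p = 0.0818, limma), which did not pass. Here rho with counted length was 0.747 over the 54 and 0.339 over all genes, and hepatocyte markers again differed, with 9 of 12 higher in 2Runx1. Runx1 itself differed by -0.13 between 2 copies and 1 (95% interval -0.35 to 0.10; adjusted p = 0.503, limma). The count was 1 without either E9.5 Ctrl library, E13.5 1Runx1 replicate 1, E13.5 2Runx1 replicate 2 or any of the 4 liver libraries, 3 without E13.5 2Runx1 replicate 1, and 0 when only these 2 groups entered the fit, where 4 of all genes passed. The E13.5 comparisons share libraries, so their values are not independent of each other.

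The size of the Runx1 response differed between stages by a test of the difference itself. The 2Runx1 effect was larger in liver than at E13.5 in 52 members and smaller in none, with a median of 1.52, where 8.2% of all genes had a larger effect in liver and 2.89% a smaller one. Ube2c (2.12; SE 0.151; adjusted p = 1.63e-05, limma), Ccnb1 (2.09), Ccna2 (2.01) and Top2a (1.99) led it, followed by Nusap1, Kif11, Prc1, Mki67, Spc24 and Ncapg at 1.92 to 1.78. Only Cenpa (0.05; adjusted p = 0.791) and Pttg1 (-0.25; adjusted p = 0.144) did not pass. The 1Runx1 effect was lower at E13.5 than at E9.5 in 3 members, where 1.1% of all genes had a lower effect: Mki67 (-0.71; SE 0.0994; adjusted p = 0.00876, limma), Cenpe (-0.67; 0.0279) and Kif20b (-0.63; 0.0469). None of the 3 passed without E9.5 Ctrl replicate 2. Of the 3, Mki67 alone passed without E9.5 Ctrl replicate 1, E9.5 1Runx1 replicate 2 or either Liver 2Runx1 library, and when only the groups compared entered the fit. Kif20b also did not pass without E9.5 1Runx1 replicate 1, E13.5 1Runx1 replicate 1 or either Liver Ctrl library. Both tests carry the single E13.5 Ctrl library, and between liver and E13.5 the tamoxifen route differed too. The time from tamoxifen to harvest was 24 hours at E13.5 and is not recorded for liver, so it cannot be told apart from stage. Runx1 itself rose more in liver than at E13.5 with 2 copies (1.68; SE 0.161; adjusted p = 0.000102, limma), reaching 78.2 against 23.9 RPKM. The part of that difference in the larger effects in liver was not tested.

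Other cell cycle genes were read from lists chosen by function. Of all genes, 42.7% fell and 42.7% rose from E9.5 Ctrl to Liver Ctrl, and 17.1% rose and 8.14% fell in Liver 2Runx1. The DNA replication list, such as the helicase genes Mcm5 and Mcm7, moved with the mitosis genes: all 28 fell from E9.5 Ctrl to Liver Ctrl (median -3.10) and all 28 rose in Liver 2Runx1 (median 1.21), led by Uhrf1 (2.099), Rrm2 (1.98) and Tk1 (1.97). Of 84 tested further mitosis genes, 82 fell and 1 rose from E9.5 to Liver Ctrl, and 72 rose and none fell in Liver 2Runx1, with a median of 0.97 and with Pimreg (2.09), Cks1b (2.07) and Pbk (2.01) in front. At E13.5 in 1Runx1, where 4.03% of all genes fell and 6.34% rose, 7 of these 84 fell and 3 rose. At E9.5 1 of the 84 rose (Psrc1, 0.56), where 1.19% of all genes passed in either direction. Among E2F, MuvB and B-Myb factors 10 of 16 rose in Liver 2Runx1, with E2f8 at 1.37, E2f1 at 1.18, Mybl2 (B-Myb) at 1.17, Tfdp1 at 0.92 and the MuvB subunit Lin9 at 0.85. Of 9 G1 cyclins and kinases 7 rose, with Ccne1 at 1.18, Ccne2 at 0.99, Ccnd3 at 0.92 and Ccnd2 at 0.59.

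Cell cycle inhibitors behaved differently from the mitosis genes. From E9.5 Ctrl to Liver Ctrl 12 of 14 tested rose and 2 fell, where 42.7% of all genes rose and 42.7% fell. Cdkn1a (p21, a CDK inhibitor) was at 8.48 and 7.59 RPKM in E9.5 Ctrl, 36.9 and 47.3 in E9.5 1Runx1, 8.05 in E13.5 Ctrl, 31.8 and 39.9 in E13.5 1Runx1, 15.6 and 14.6 in E13.5 2Runx1, 60.3 and 61.3 in Liver Ctrl, and 52.3 and 53.6 in Liver 2Runx1. It thus rose with 1 copy at both embryonic stages, by 2.25 at E9.5 (adjusted p = 5.43e-06, limma) and by 2.02 at E13.5 (adjusted p = 5.47e-05), at E9.5 beside mitosis genes of which none passed. It was lower with 2 copies than with 1 at E13.5 (-1.19; adjusted p = 0.000694, limma). In Liver 2Runx1 4 of 14 tested inhibitors fell and 2 rose, where 8.14% of all genes fell and 17.1% rose. Those that fell included Cdkn1c (p57) by 1.11, Gadd45b by 0.69 and Btg1 by 0.34. Those that rose were Cdkn2c (p18) by 1.01 and Rbl1 (p107) by 0.64.

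**Figure D5:**
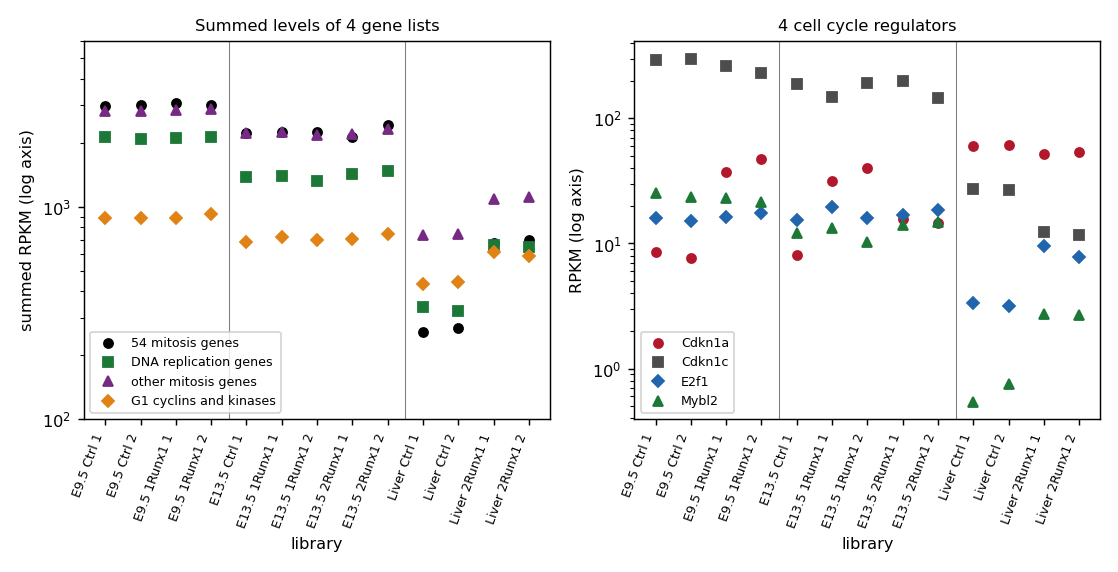
Left, summed RPKM (log axis) of the 54 mitosis genes, 28 DNA replication genes, 85 further mitosis genes and 9 G1 cyclins and kinases in each of 13 libraries; right, RPKM (log axis) of Cdkn1a, Cdkn1c, E2f1 and Mybl2 in the same libraries. All 4 sums step down from E9.5 to E13.5 to Liver Ctrl and lie higher in Liver 2Runx1 than in Liver Ctrl, while Cdkn1a is highest in Liver Ctrl.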

How the data were processed

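RNA from 13 libraries was prepared from polyadenylated RNA with an unstranded Nextera XT kit and sequenced in pairs, per the labels' protocols. The submitters' processing notes list, with no role or order, MACS2 2.1.4, STAR 2.7.3a, Bowtie2 2.3.5.1, Subread 2.0.0, featureCounts and edgeR, and the build mm10/GRCm38. The authors deposited 1 table of RPKM values. Reads were recovered from it as whole multiples for 20719 of the 20720 genes above 0, within 0.001 reads, and gave totals of 37501897 to 44181296 reads per library. Beyond these totals, the deposited values were divided by a further factor per library, given here relative to the geometric mean. That factor was 1.026 to 1.053 at E9.5, 1.107 to 1.130 at E13.5 and 0.827 to 0.842 in liver, so it enters the differences between stages. No value column was left out (0 not used).

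The authors' peak lists give a fold enrichment over background, a display score and the −log10 of q for each peak. Only the deposited fold and, in an alternative, the −log10 q were used, to describe or filter peaks. Each list covers a group, and the labels do not say how its replicates were combined.

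Values were tested as log2(RPKM + 1) with limma 3.58.1 (R 4.3.3), with lmFit and eBayes with trend in 1 fit of 7 group means, after a filter of RPKM at least 1 in at least 2 libraries. P-values were adjusted over 12546 genes by Benjamini-Hochberg, with 0.05 as the threshold. The fit was tested on simulated data. Differences between stages in the Runx1 effect were contrasts of the same fit.

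The members, lists and tests were chosen with earlier results of these data known. Named genes were the member of each role with the highest mean RPKM, the called members of each comparison (at most 10 by size), the 3 smallest adjusted p where fewer than 3 passed, any member called against the majority, and up to 5 called genes per further list. Other members were named after their values were seen, to account for each class. Promoter sequences are RefSeq's, in GRCm38.p6; 45 of the 54 members had one. Reads are not independent molecules, so counting error is a lower limit on the error of low values. The alternatives were pseudocounts, filters, scaling, limma-voom on recovered reads, a replicate block, narrower sample sets and each library left out.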

Additional observations from a re-analysis of the deposited data

Results flagged for a closer look

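Results are listed here because a test of the difference between stages itself passed (limma, adjusted p under 0.05). The 2Runx1 effect was larger in liver than at E13.5 in 52 members, led by Ube2c (2.12), Ccnb1 (2.09), Ccna2 (2.01), Top2a (1.99), Nusap1 (1.92), Kif11 (1.86), Prc1 (1.86), Mki67 (1.85), Spc24 (1.78) and Ncapg (1.78). In each of these the mean was higher in Liver 2Runx1 than in Liver Ctrl. The 1Runx1 effect was lower at E13.5 than at E9.5 in 3 members, Mki67 (-0.71), Cenpe (-0.67) and Kif20b (-0.63). Both sets of values carry the single E13.5 Ctrl library, and Runx1 itself also rose more in liver than at E13.5 with 2 copies (1.68).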

How the results depend on the processing

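The liver and stage results kept their directions under every alternative run, and no result reversed. Counts of members called that moved by over 1.5 times were those at E13.5 and of the 1Runx1 effect. For E13.5 1Runx1 against Ctrl the count of 7 became 4 with a pseudocount of 0.1, 3 with no filter and 0 with only those groups in the fit (10 at an unadjusted p under 0.05, where 0 of all genes passed). For E13.5 2Runx1 against 1Runx1 the count of 2 became 1 with a pseudocount of 0.1, 1 with no filter and 0 with only those groups (4 at an unadjusted p under 0.05). For the difference of the 1Runx1 effect the count of 3 became 1 with a pseudocount of 0.1 and 5 by limma-voom on recovered reads. The causes were not tested.

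With 1 library left out, the counts ran from 0 to 0 at E9.5, 2 to 10 for E13.5 1Runx1 against Ctrl, 0 to 2 for E13.5 2Runx1 against Ctrl, 1 to 3 for 2Runx1 against 1Runx1, 52 to 54 in liver, 32 to 42 from E9.5 to E13.5 Ctrl, 54 to 54 from either embryonic Ctrl to Liver Ctrl, 0 to 4 for the difference of the 1Runx1 effect and 50 to 52 for that of the 2Runx1 effect. The E13.5 Ctrl library cannot be left out of its own comparisons.

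Replicate numbers share only a number: the correlation of same-numbered deviations between groups ran from -0.061 to 0.107 over 15 pairs of groups. With the replicate block the counts were 0, 6, 0 and 2 in the 4 embryonic Runx1 comparisons, 54 in liver, 39, 54 and 54 between stages, and 4 and 50 for the differences of effects. Among the falls in E13.5 1Runx1, Cenpf did not pass in 10, Ncapg in 11 and Kif11 in 13 of 21 alternatives, and Cenpe in 2Runx1 against 1Runx1 did not pass in 13 of 22. The largest adjusted p over the alternatives was 0.302 for Mki67 and 0.314 for Cenpe in E13.5 1Runx1. With medians set equal, the median of all genes from E13.5 to Liver Ctrl went from 0.02 to -0.08 and that of the members from -3.12 to -3.22, with 53 lower and 1 higher as before; no other scaling or comparison moved it by over 0.1. On the gene strand alone, CCAAT went from 34 to 21 members and RUNX letters from 6 to 2. Over all entries CCAAT went from 37.4% to 21.1% and RUNX letters from 22.4% to 12.1%. Depth limits low members in Liver Ctrl, such as Troap (47 and 74 reads), Kif15 (52 and 76), Cenpn (76 and 80) and Spc24 (77 and 113).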

Other observations

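H3K4me1, a histone mark of enhancers and promoter flanks, was mapped at E13.5 in Ctrl and 2Runx1, and the labels of the 2Runx1 input and of 1 ChIP library appear exchanged. In the authors' deposited lists, a broad peak covered a base within 500 of the start in 17 of 45 members (37.8%) in Ctrl and in 30 of 45 (66.7%) in 2Runx1. Among all genes the shares were 23.1% and 42.8%, and the lists held 48795 and 88344 peaks, so the members and all genes differed between the lists in the same direction. Within 250 bases the members with a peak numbered 4 and 15, and in a window wider than 500 bases they numbered 29 and 38. These counts were not made over all genes, so they have no background share. When only peaks with a high −log10 q were kept, 0 members had a peak in either list.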
